A study of Mus musculus with 7 samples.

Results

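The genes described here were 10 genes that mark the lining of blood vessels, the endothelium, measured in mouse mammary glands kept in organ culture. They were taken by name (Esam, Kdr, Egfl7, Cldn5, Pecam1, Cdh5, Tek, Tie1, Emcn and Flt1). Each had 1 probe that could be named through RefSeq. Thus 10 of 34967 gene probes, and 10 of the 13971 genes that could be named, were members. Probes without a matched RefSeq accession could not be assigned to a gene. Total RNA from whole glands was hybridised to 7 1-colour CodeLink Mouse Whole Genome arrays, and each group was represented by 1 array, so no comparison had a replicate check and no test of a difference was made. All glands came from 4-week-old female mice that had been given hormones before the glands were excised. The labels list estrogen (1 µg) with progesterone (1 mg) over 9 days and also EGF (25 ng) with progesterone (1 mg) over 5 days without tying either to an array, and the study's text names EGF with progesterone for its αERKO, βERKO and WT arrays.

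The first array held glands of αERKO mice, which lack estrogen receptor α (Esr1), after 24 days of culture. The second held glands labelled βERKO, from mice said to lack estrogen receptor β (Esr2), after 24 days. The third held wild-type (WT) C57 glands after 24 days with 7,12-dimethylbenz[a]anthracene (DMBA), a polycyclic aromatic hydrocarbon carcinogen. The methods apply DMBA at 2 µg/ml for 24 h on day 3 of culture, within a growth phase of 10 days that was followed by a regression phase of 14 days in insulin alone. Other arrays held WT C57 glands after 10 days and after 24 days, neither of them given DMBA, and Balb/c glands after 24 days alone and with Vitamin D5. Treatment with DMBA is named in the title of the third array alone, and the titles of the other WT arrays say no DMBA. The study's text describes carcinogen-treated glands for the αERKO, βERKO and WT groups, although 1 passage of the methods states that lesion-free αERKO glands gave no sample. The sources do not say if Balb/c glands saw DMBA or how much Vitamin D5 was used. Both knockouts were made on a C57BL6/129SV background and compared with C57 mice, so genotype and strain cannot be told apart. RNA of 5 mice was pooled per group for the αERKO, βERKO and WT groups, and an array therefore gave the mean of its pool and nothing on the spread between mice.

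Endothelial cells line every vessel and are held together by adherens and tight junctions, in which VE-cadherin (Cdh5), claudin 5 (Cldn5), PECAM-1 (Pecam1) and ESAM (Esam) sit. They read vascular endothelial growth factor (VEGF) through the receptors VEGFR2 (Kdr) and VEGFR1 (Flt1), and angiopoietins through Tie2 (Tek) with its relative Tie1. In the mammary gland the capillary bed runs through the fat pad and around the ducts and alveoli, and in organ culture it is cut off from blood flow.

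The bases just upstream of the transcription start are shown for 5 members that the comparisons turn on, the receptors Kdr, Tek and Tie1 and the surface genes Cldn5 and Emcn, because factors of the ETS family are known to bind many endothelial promoters. RefSeq promoter entries were at hand for 7 of the 10 members, 9 entries in all, of which Egfl7 has 3. Each sequence gives 250 bases 5′ to 3′ on the gene's strand, up to the base before the start, from RefSeq on GRCm38.p6, and capitals mark the ETS core AGGAAG or its reverse complement CTTCCT.
Kdr, chr5:75978456-75978705, minus strand: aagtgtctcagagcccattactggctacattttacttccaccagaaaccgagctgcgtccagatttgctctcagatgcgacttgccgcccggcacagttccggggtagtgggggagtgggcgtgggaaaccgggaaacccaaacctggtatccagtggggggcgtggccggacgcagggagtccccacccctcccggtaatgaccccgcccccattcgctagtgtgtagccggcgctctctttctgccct
Tie1, chr4:118489850-118490099, minus strand: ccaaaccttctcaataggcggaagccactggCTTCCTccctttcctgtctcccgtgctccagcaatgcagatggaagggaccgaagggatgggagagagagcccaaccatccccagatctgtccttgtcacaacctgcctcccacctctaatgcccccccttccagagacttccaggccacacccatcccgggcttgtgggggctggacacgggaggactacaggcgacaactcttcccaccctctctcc
Tek, chr4:94739039-94739288, plus strand: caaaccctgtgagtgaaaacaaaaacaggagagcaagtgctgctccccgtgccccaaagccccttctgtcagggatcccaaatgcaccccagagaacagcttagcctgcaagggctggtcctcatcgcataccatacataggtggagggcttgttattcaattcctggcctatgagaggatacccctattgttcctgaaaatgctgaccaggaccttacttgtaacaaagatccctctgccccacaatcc
Cldn5, chr16:18776597-18776846, plus strand: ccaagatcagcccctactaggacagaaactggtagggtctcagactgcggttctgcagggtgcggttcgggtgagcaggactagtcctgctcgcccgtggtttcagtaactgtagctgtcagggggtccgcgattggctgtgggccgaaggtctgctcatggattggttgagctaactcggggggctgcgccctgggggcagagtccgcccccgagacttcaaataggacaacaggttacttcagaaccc
Emcn, chr3:137340828-137341077, plus strand: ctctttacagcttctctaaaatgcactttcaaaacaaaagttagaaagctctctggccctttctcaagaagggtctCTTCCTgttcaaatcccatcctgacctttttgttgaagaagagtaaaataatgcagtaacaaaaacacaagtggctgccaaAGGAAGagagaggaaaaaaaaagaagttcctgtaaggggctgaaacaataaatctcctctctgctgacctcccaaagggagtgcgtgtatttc

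The ETS form AGGAAG was found in 5 of the 9 entries (from Egfl7, Emcn, Tie1 and Flt1), while 29.5% of 32851 mouse promoters of the same length held it on either strand. In Tie1 it began at position -219 from the start, and in Emcn the first of its matches was at -174. The Kdr, Tek and Cldn5 windows did not hold these letters. The core GCGTG, which the aryl hydrocarbon receptor that DMBA engages is known to bind, was present in 3 of the 9 entries (Kdr, Emcn and Flt1) against 28.2% of all promoters. The GATA motif AGATAA was in 0 of the 9 against 9.99%, the GC box GGGCGG in 4 against 32.7%, and TATAAA in 1, that of Flt1, against 12.4%, each searched on both strands. None of the 5 strings contains another. The GC content of the members' windows ran from 40.8% in Emcn to 70.4% in Flt1, against a median of 52.4% over all promoters.

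Values below are normalized intensities, that is, a probe's background-subtracted intensity divided by the median of the gene probes on its array. A spot was called good when the scanner software gave it its good flag, and a spot without it is written as near background. Good spots made up between 68.4% and 74.2% of the 34967 gene probes on an array, the array medians ran from 39.1 to 53.0 intensity units, and the number of arrays limits the precision. All 10 members were good on at least 1 array and 7 were good on all 7. The label of an endothelial set was not met evenly by its members, since Cdh5, a defining marker, was near background on 5 arrays and Flt1 on 6. The targeted genes were examined on the same arrays. Esr1 was near background on the αERKO array (0.0737), but also on 4 others, and was good on the WT DMBA array (0.494). Esr2 was good and highest, at 1.83, on the array labelled βERKO, against 0.683 on the WT array at 24 days and 0.0170, near background, on the WT DMBA array. This goes against the label unless the probe lies outside the deleted part, which was not tested, and the array is called the array labelled βERKO throughout.

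The VEGF receptor Kdr, the main signalling receptor for VEGF-A, had the widest range of the members, 69.4-fold. Its normalized intensity was 0.352, near background, in WT glands at 10 days, 0.845 in WT glands at 24 days and 9.65 in WT glands at 24 days with DMBA. It was 2.82 on the array labelled βERKO, 23.6 on the αERKO array, 0.362, near background, in Balb/c glands and 0.340 with Vitamin D5. Kdr was thus high on the αERKO and WT DMBA arrays, intermediate on the array labelled βERKO and low on the other 4. Flt1, which binds VEGF with high affinity and limits its access to Kdr, was good on 1 array, WT DMBA, at 0.371. On the other 6 it was near background, between 0.0760 on the WT 10-day array and 0.215 on the Balb/c array. Its order among those 6 therefore carried little information.

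Tek encodes Tie2, the angiopoietin receptor. Its normalized intensity was 0.558 in WT glands at 10 days, 0.812 at 24 days and 3.07 at 24 days with DMBA, 1.41 on the array labelled βERKO, 3.08 on the αERKO array, 0.566 in Balb/c glands and 0.659 with Vitamin D5. The αERKO and WT DMBA arrays were level, with a gap of 0.01 on the log2 scale, and stood above the array labelled βERKO. Tie1, the partner that forms complexes with Tie2, was good on all arrays. It measured 1.24 in WT glands at 10 days, 2.40 at 24 days, 14.4 with DMBA, 5.53 on the array labelled βERKO, 12.1 on the αERKO array, 1.45 in Balb/c glands and 1.44 with Vitamin D5. Tie1 had the same 3 arrays on top as Tek. The gap of 0.25 between WT DMBA and αERKO lay within a spread of 0.61, estimated for these 2 arrays from probe pairs for the same transcript. This spread, here called the probe-pair SD, was the SD of the log2 ratio of 1 probe. It was the root mean square difference in log2 ratio between 2 probes of 1 accession, divided by the square root of 2. The probes were good on both arrays, over 516 to 545 pairs depending on the comparison. It covers measurement differences between probes and says nothing of differences between pools of mice.

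Among the junction genes, Cdh5 stood apart. Its probe was good on the Balb/c arrays only, at 1.84 without and 0.340 with Vitamin D5. On the other 5 arrays it was near background, at 0.113 on the αERKO array, 0.294 on WT DMBA, 0.380 on the array labelled βERKO, 0.222 in WT at 10 days and 0.202 in WT at 24 days. Only the Balb/c array without Vitamin D5 stood out for Cdh5, and its order among the others carried little information.

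Cldn5, the tight-junction protein that seals endothelium, was good on every array. It measured 1.03 in WT glands at 10 days, 4.66 at 24 days, 22.9 with DMBA, 5.75 on the array labelled βERKO, 7.40 on the αERKO array, 1.17 in Balb/c glands and 0.635 with Vitamin D5. WT DMBA was alone at the top, and αERKO, labelled βERKO and WT at 24 days followed with neighbouring gaps of 0.36 and 0.30, within probe-pair SDs of 0.58 and 0.35. Pecam1, an adhesion molecule of endothelial junctions that platelets and leukocytes also carry, measured 0.619 in WT glands at 10 days, 0.997 at 24 days, 5.40 with DMBA, 1.96 on the array labelled βERKO, 1.88 on the αERKO array, 0.725 in Balb/c glands and 0.523 with Vitamin D5. Again WT DMBA stood alone, and αERKO and labelled βERKO were level with a gap of 0.06. Esam, a junctional adhesion molecule, was bright on every array. Its values were 7.79 in WT glands at 10 days, 21.2 at 24 days, 79.2 with DMBA, 31.1 on the array labelled βERKO, 56.8 on the αERKO array, 9.12 in Balb/c glands and 7.64 with Vitamin D5. The top gap of Esam, WT DMBA over αERKO, was 0.48 and lay within the probe-pair SD of 0.61.

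Egfl7, a protein that endothelial cells secrete into their matrix and that guides tube formation, measured 2.00 in WT glands at 10 days, 3.50 at 24 days, 19.6 with DMBA, 9.78 on the array labelled βERKO, 16.5 on the αERKO array, 2.23 in Balb/c glands and 1.77 with Vitamin D5. The lowest 3 arrays of Egfl7 had neighbouring gaps of 0.16 and 0.17, each within the probe-pair SD. Of these arrays, Balb/c with Vitamin D5 lay below Balb/c without it by more than the SD (log2 ratio -0.33, SD 0.23). Emcn, or endomucin, a sialoglycoprotein of capillary and venous endothelium, measured 0.589 in WT glands at 10 days, 3.74 at 24 days, 13.6 with DMBA, 5.27 on the array labelled βERKO, 3.97 on the αERKO array, 0.768 in Balb/c glands and 0.689 with Vitamin D5. For Emcn and Cldn5 the WT value at 24 days without DMBA lay within the probe-pair SD of the next array above it, whereas for Kdr, Tek, Tie1, Pecam1, Esam and Egfl7 that gap was wider than the SD.

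**Figure D1:**
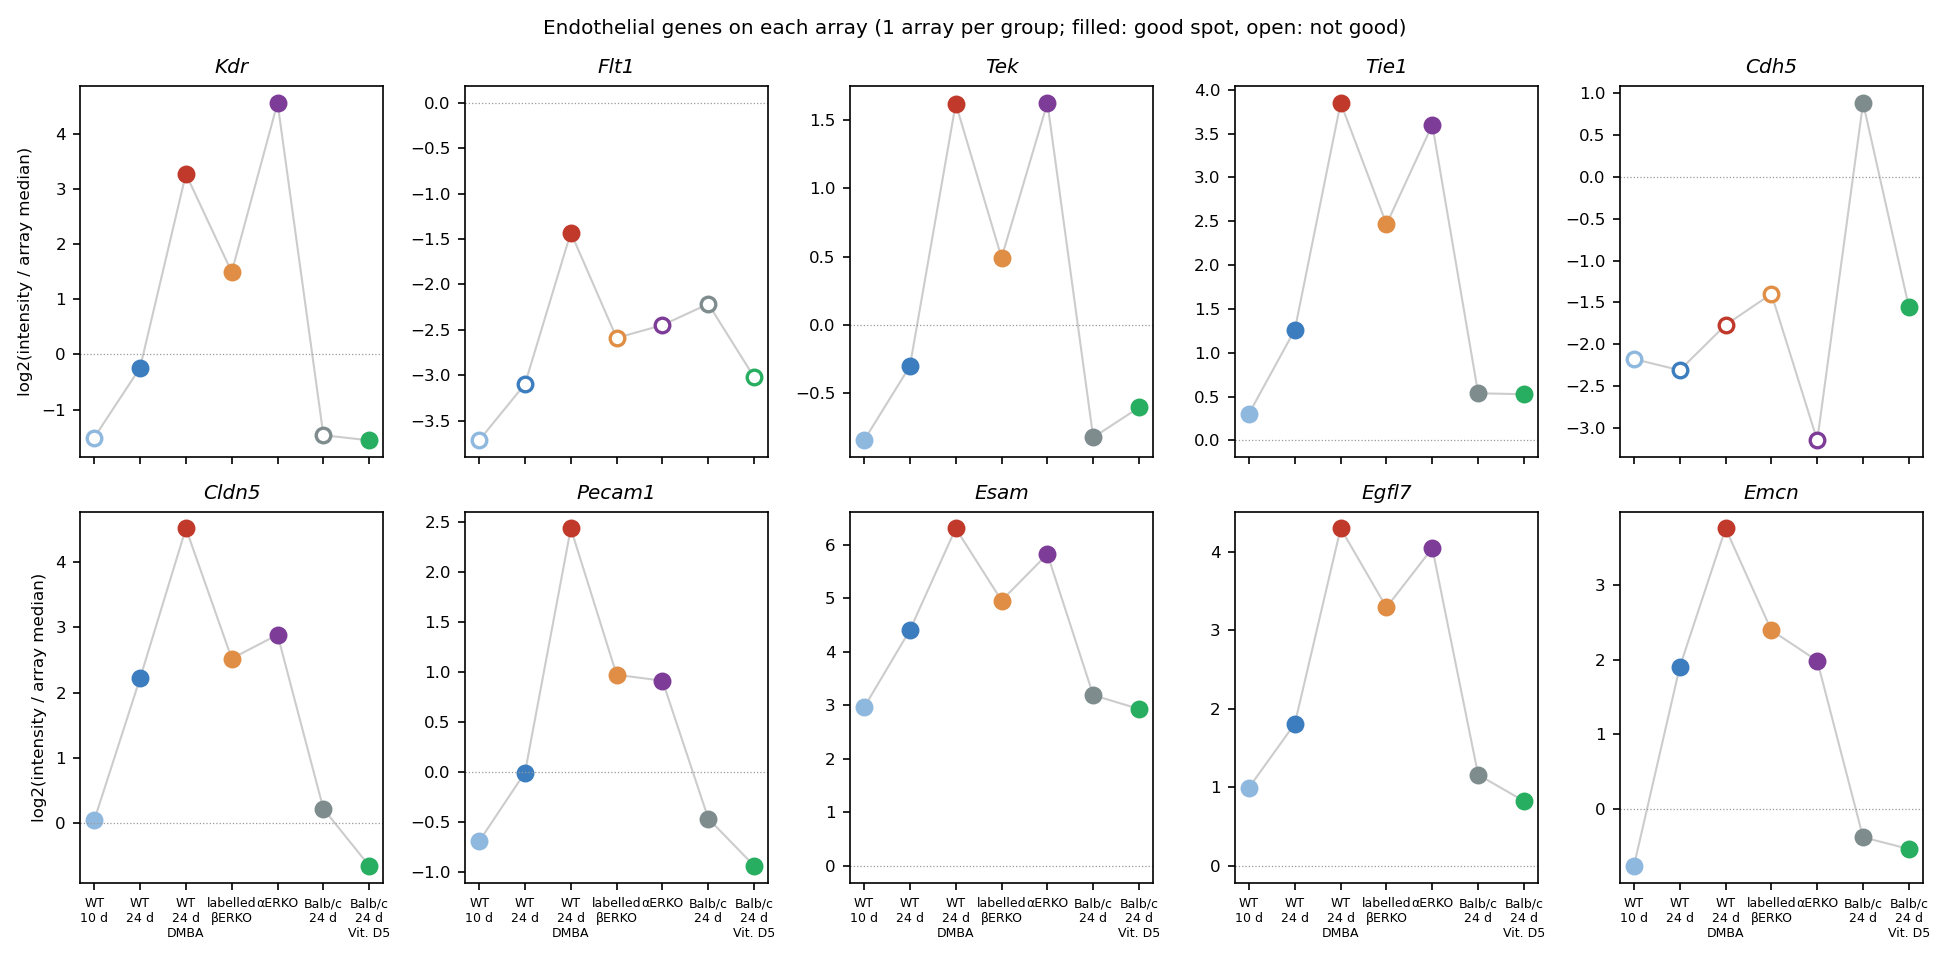
Each panel plots 1 gene's log2 normalized intensity (vertical axis, log2 of intensity over the array median, scaled separately in each panel) on the 7 arrays (horizontal axis), 1 point per array. Filled points are good spots, open points are not, and thin grey lines only join the points. In 8 of the 10 panels the WT DMBA, βERKO-labelled and αERKO points lie above the other 4, and Flt1 and Cdh5 are the exceptions.

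For 8 of the 10 members the WT DMBA, βERKO-labelled and αERKO arrays all lay above the other 4 arrays, an order that 8.88% of 32062 probes good on at least 1 array also had. WT DMBA was the highest array for 7 members, against 9.45% of those probes. Kdr and Tek were highest on the αERKO array and Cdh5 on the Balb/c array. For Tek, and for Tie1, Esam and Egfl7 among those 7, the gap between the αERKO and WT DMBA arrays lay within the probe-pair SD of 0.61. The lowest array was Balb/c with Vitamin D5 for 5 members, WT at 10 days for 4, among them Flt1, and αERKO for Cdh5. The share of all probes lowest on these arrays was not counted. For Kdr (gap 0.05), Esam (0.03) and Egfl7 (0.17) Balb/c with Vitamin D5 and WT at 10 days lay within the probe-pair SD of 0.20. For Tek, WT at 10 days and Balb/c did so too (gap 0.02, SD 0.22). The lowest spots of Flt1 and Cdh5 were near background, where their order carried little information.

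WT glands with DMBA were compared with WT glands of the same 24 days without it, to see how the carcinogen-treated gland differed. The WT DMBA array belongs to the study's own EGF-pretreated set of 3, and for the other WT array neither pretreatment nor pool size is settled, so DMBA and these differences cannot be told apart. In this comparison 9 members were good on at least 1 of the 2 arrays. Their ratios as measured were all over 2-fold higher with DMBA and 0 were lower, 8 of them with good spots on both arrays and Flt1 with a bound under 2-fold, while 10.1% of 27808 probes were over 2-fold higher and 8.46% over 2-fold lower. The median log2 ratio over all 10 members was 2.11, or 4.31-fold, against -0.13 over all tested probes, and the probe-pair SD was 0.32. Kdr had the highest ratio, 11.4-fold (log2 3.51). With normexp the log2 ratios were smaller for Kdr (2.50), Pecam1 (1.66) and Tek (1.14), all still past 2-fold. Tie1 was 6.02-fold higher, Egfl7 5.60-fold, Pecam1 5.42-fold and Cldn5 4.92-fold. Tek was 3.78-fold, Esam 3.74-fold and Emcn 3.63-fold higher. The log2 ratios of Tek and its relative Tie1 thus differed by more than the probe-pair SD. Flt1 was good on the DMBA array alone, and with the WT value taken at the array's lowest good signal it was at least 1.14-fold higher. Cdh5 was near background on both arrays. In whole glands, more endothelial cells and more RNA per endothelial cell cannot be told apart, nor can fewer cells and less RNA per cell where members were lower, and this holds for every comparison below.

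Other endothelial genes were taken from a list of 37, of which 33 had a named probe. In the same comparison 25 of 33 were over 2-fold higher with DMBA and 0 lower, with a median log2 ratio of 1.51. Plvap, which forms the diaphragms of fenestrated capillaries, was 9.96-fold higher, Ptprb, the phosphatase VE-PTP that restrains Tie2, 9.34-fold, and Ramp2, the adrenomedullin co-receptor of endothelium, 8.89-fold. The transcription factor Erg (log2 ratio -0.49), the selectins Sele (-0.57) and Selp (0.16), and the gap-junction gene Gja4 (-0.12) did not pass 2-fold. The list was thus mostly, but not wholly, higher. Among the ligands, Vegfa fell from 32.2 to 7.45 (log2 ratio -2.11), the opposite direction to its receptor Kdr. Vegfd, a ligand of VEGFR3, went from 2.90 to 7.50 (1.37). These were the only ligands of 7 tested past 2-fold, and Angpt2, which modulates Tie2, reached 1.94 from 0.986 (0.97). Of the co-receptors and signalling partners of these receptors (Nrp1, Flt4, Ptprb, Nos3 and Sh2d2a) 3 of 4 tested were higher and 0 lower, Ptprb and Nos3 being counted in the list of 33 too. Nrp1, a VEGF co-receptor, was higher with a log2 ratio of 2.57, and Flt4, or VEGFR3, was at -0.19.

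**Figure D2:**
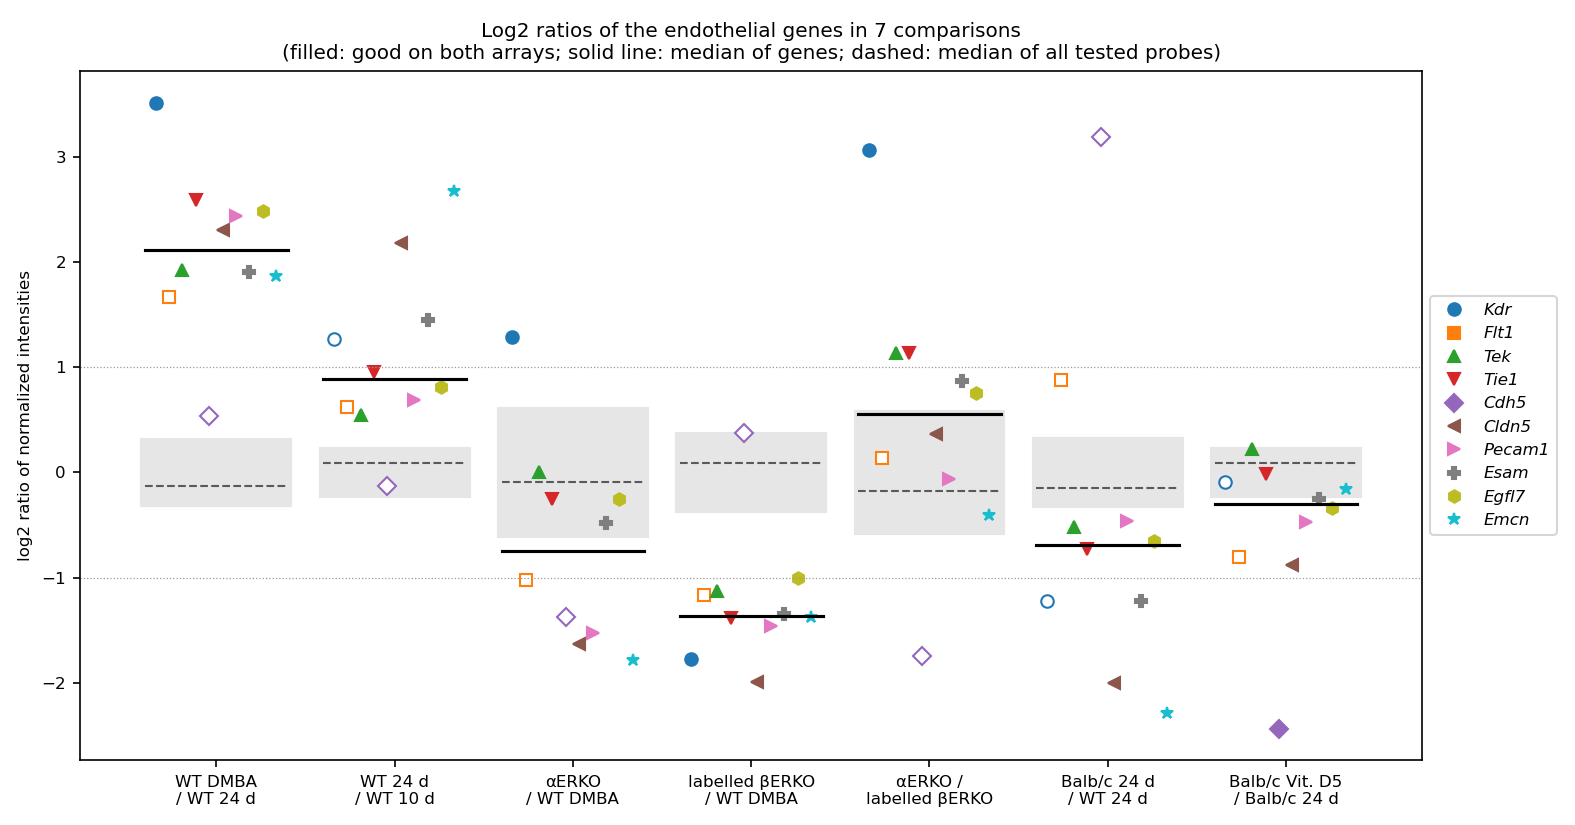
Log2 ratios of normalized intensities (vertical axis) for the 10 genes, 1 symbol and colour per gene, in 7 comparisons of 1 array with 1 array (horizontal axis). Filled symbols were good on both arrays, the solid line is the median of the 10 genes, the dashed line the median of all tested probes, the grey band spans the probe-pair SD above and below 0, and dotted lines mark 2-fold. The genes' median is 2.11 for WT DMBA over WT at 24 days and -1.36 for the array labelled βERKO over WT DMBA.

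Markers of other tissue compartments moved in the same comparison. Of 9 adipocyte markers 6 were over 2-fold higher with DMBA and 0 lower, and their summed normalized intensity was 1913 against 1059. Of 10 fibroblast markers 10 were higher, with sums of 254 and 18.6. Pericyte markers, the mural cells that wrap capillaries, had 5 of 8 tested higher and 1 lower, with sums of 22.3 and 5.81. Epithelial markers went the other way, with 7 of 12 lower and 0 higher and sums of 729 and 1529. The DMBA array therefore carried more adipocyte, fibroblast and pericyte signal and less epithelial signal, and the part of this shift in the members' ratios was not tested. Leukocyte markers had 3 of 7 higher and 1 lower, with sums of 235 and 102, and platelet markers 0 of 4 higher and 1 lower, with sums of 51.1 and 40.0, which bears on Pecam1, since both cell types carry it.

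Culture time was compared in WT glands without DMBA, 24 days against 10 days, which covers the regression phase in insulin. Of 8 members tested 4 were over 2-fold higher at 24 days and 0 lower, against 6.05% of 27173 probes higher and 6.34% lower. Emcn was 6.36-fold higher (log2 2.67), Cldn5 4.52-fold (2.18) and Esam 2.72-fold (1.45), and Kdr was 2.40-fold higher than its own near-background spot at 10 days. With normexp, which shrinks dim values, Kdr (0.41) was no longer past 2-fold and Emcn (1.48) and Cldn5 (1.40) had smaller ratios. Tie1 (0.96), Egfl7 (0.81), Pecam1 (0.69) and Tek (0.54) did not pass 2-fold but were above the probe-pair SD of 0.23. Flt1 and Cdh5 were near background on both arrays. The median of the 10 members was 0.88, or 1.85-fold, and that of all tested probes 0.09. Among the other endothelial genes 9 of 31 tested were over 2-fold higher and 1 lower, with a median of 0.53. Adgrl4, an adhesion receptor of endothelium (1.77), and Cd93, a lectin-like endothelial surface protein (1.44), were higher, and Apln, the ligand apelin (-1.04), was lower. Adipocyte markers were over 2-fold higher in 9 of 9, with sums of 1059 at 24 days and 312 at 10 days, and epithelial markers lower in 4 of 12 and higher in 0, with sums of 1529 and 1813. Their part in the members' ratios was not tested.

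The αERKO array was compared with WT DMBA, one of the study's own contrasts. Members lay on both sides in this comparison. Of 9 tested, 1 passed 2-fold upwards and 4 passed it downwards as measured, 3 of these with good spots on both arrays. Over all 27812 probes tested, 11.7% were higher and 14.1% lower, so 1 higher member of 9 was near the share of all probes. Kdr was 23.6 against 9.65 and higher by 1.29 on the log2 scale. Emcn (-1.78), Cldn5 (-1.63) and Pecam1 (-1.52) were lower, and Flt1, near background on the αERKO array, was lower by at least 1.03-fold, a bound that leaves its size unmeasured. Tek (0.01), Tie1 (-0.25), Egfl7 (-0.25) and Esam (-0.48) lay within the probe-pair SD of 0.61, the widest of the 7 comparisons. The receptor tyrosine kinase Kdr thus had the opposite direction to 3 junction and surface genes that were good on both arrays. The median of the 10 members was -0.75, that of members good on both arrays -0.37, and that of all tested probes -0.09. With dim values raised to the lowest good signal the members' median was -0.25 and with normexp background correction -0.42.

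The ligands and the other endothelial genes were mixed in that comparison as well. Vegfa (16.6 against 7.45, log2 1.16) and Vegfb (24.0 against 10.8, 1.15) were higher on the αERKO array, and Pgf, placental growth factor and a ligand of Flt1, was 1.01 against 18.7 (-4.21), while Angpt2 was 0.759 against 1.94 (-1.35). Of 33 other endothelial genes 3 were over 2-fold higher and 7 lower, with a median of -0.34. The scavenger receptor Stab2 (2.56), von Willebrand factor Vwf (1.61) and the transcription factor Sox7 (1.15) were higher, and Rhoj (-2.08), Cd93 (-1.52) and Rasip1 (-1.39), which shape endothelial tubes and adhesion, were lower. The αERKO array stood apart from all others in skeletal muscle markers, whose summed normalized intensity was 2308 there and between 8.53 and 51.6 on the other 6, with 9 of 9 over 2-fold higher than on WT DMBA. Muscle is rich in capillaries, and the part of muscle RNA in the members' values on that array was not tested. Pericyte markers were higher in 5 of 9 and lower in 0, among them Rgs5 at 4.38 against 0.757. Adipocyte markers were higher in 3 of 9 and lower in 1, with sums of 3365 and 1913, and epithelial markers lower in 7 of 12, with sums of 509 and 729. Fibroblast markers were higher in 4 of 10 and lower in 1, with sums of 579 and 254, and leukocyte markers higher in 4 of 8 and lower in 2, with sums of 97.1 and 235. The part of these in the members' ratios was not tested either.

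The array labelled βERKO was set against the same WT DMBA array. Of 9 members tested, 8 were over 2-fold lower with good spots on both arrays, Flt1 was lower with a bound under 2-fold, and 0 were higher, against 8.37% of 27469 probes lower and 6.96% higher. Cldn5 (log2 ratio -2.00), Kdr (-1.78), Pecam1 (-1.46), Tie1 (-1.39), Emcn (-1.37), Esam (-1.35), Tek (-1.13) and Egfl7 (-1.01) were good on both arrays, and Egfl7 was nearest to the threshold. Flt1, near background on the array labelled βERKO, was lower by at least 1.14-fold. With normexp Tek (-0.77) was no longer past 2-fold. The median was -1.36, a 2.57-fold difference, against 0.09 over all tested probes, with a probe-pair SD of 0.38. Both this comparison and those of DMBA and of αERKO rest on the same WT DMBA array, so a high or low value of that array enters all 3.

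Other endothelial genes were lower in 15 of 33 and higher in 2, with a median of -0.85. Gpihbp1, which carries lipoprotein lipase across the capillary wall, was lower by 21.0-fold, and Plvap (-2.95) and Ramp2 (-2.82) followed. Apln was 11.3-fold higher (3.50) and Myct1 was higher by 1.10. Ptprb was lower, at 5.51 against 17.0 (-1.62), and Nos3, endothelial nitric oxide synthase, was lower by 1.07 on the log2 scale. Among the ligands Vegfa (19.0 against 7.45, 1.35) and Angpt2 (4.07 against 1.94, 1.07) were higher and 0 were lower on the array labelled βERKO. Vegfa and Kdr thus differed in sign here and for DMBA, 2 comparisons that share the WT DMBA array, and had the same sign for αERKO against WT. Fibroblast markers were lower in 6 of 10 and higher in 0, with sums of 102 and 254, pericyte markers lower in 4 of 7 and higher in 0, with sums of 7.38 and 22.3, and Rgs5 was near background at 0.111. Skeletal muscle markers were higher in 6 of 6 tested, with sums of 51.6 and 10.4. Adipocyte markers were lower in 2 of 9, with sums of 1664 and 1913, and epithelial markers higher in 3 of 12, with sums of 1150 and 729. Leukocyte markers, which bear on Pecam1, were lower in 2 of 6 and higher in 0, with sums of 74.6 and 235. The part of these in the members' ratios was not tested.

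The αERKO array against the array labelled βERKO is the remaining contrast of the study's own set. Of 8 members tested 3 were over 2-fold higher on the αERKO array and 0 lower, against 13.5% of 27026 probes higher and 16.6% lower. Kdr was 8.38-fold higher (3.07), and Tek (1.13) and its relative Tie1 (1.13) were higher by nearly equal amounts. These calls depended on the scaling. Quantile scaling and cyclic loess also put Esam (1.07 and 1.27) and Egfl7 (1.00 and 1.08) past 2-fold, while with normexp background correction Tek (0.67) and Tie1 (0.93) were under it and Kdr was called alone. Esam (0.87) and Egfl7 (0.75) lay above the probe-pair SD of 0.58 but under 2-fold, and Cldn5 (0.36), Pecam1 (-0.06) and Emcn (-0.41) lay within it. The sign of Pecam1 turned under 3 of 6 other ways of processing the arrays, with values up to 0.12. The members' median was 0.56 against -0.18 over all tested probes, and scaling the arrays to their 75th percentile moved the latter to 0.00 and the probes' split from 13.5% higher and 16.6% lower to 16.2% and 12.8%, with 4 members then called higher.

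Other endothelial genes were higher on the αERKO array in 10 of 33 and lower in 3. Gpihbp1 (3.97), Ramp2 (3.36) and Ptprb (2.50) were higher, and Apln (-3.84), Selp (-1.42) and Rhoj (-1.07) were lower. Vegfb, at 24.0 against 9.15, was higher by 1.39, and Pgf (-3.91) and Angpt2 (-2.42) were lower. Over 2-fold higher on the αERKO array were 9 of 9 muscle, 7 of 9 pericyte, 9 of 10 fibroblast and 3 of 9 adipocyte markers, with 0 lower past 2-fold in each of these lists, and 9 of 12 epithelial markers were lower. Leukocyte markers were higher in 4 of 8 and lower in 0. Adipoq, the adipokine adiponectin, was level at 0.14. Their part in the result was not tested.

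**Figure D3:**
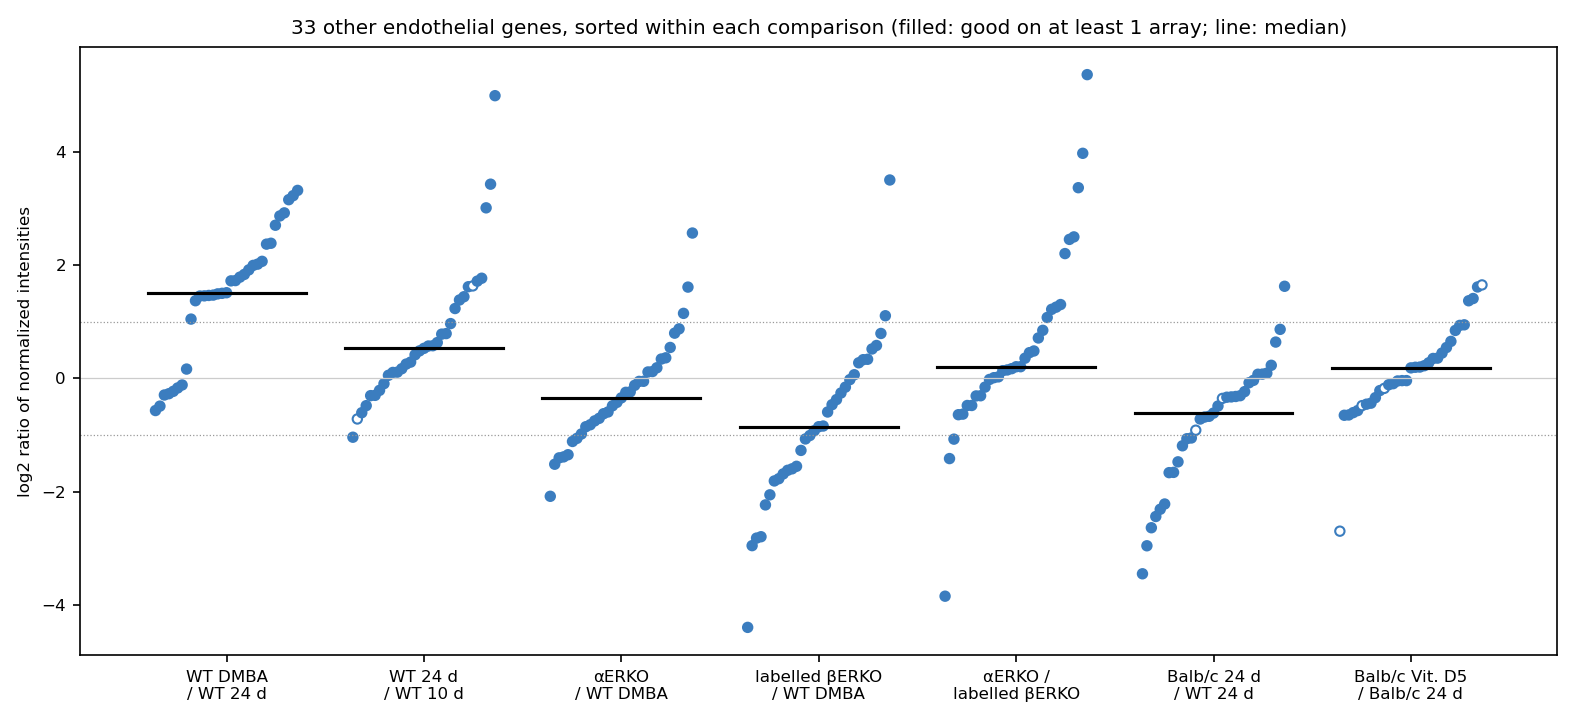
Log2 ratios (vertical axis) of the 33 other endothelial genes, sorted within each of the 7 comparisons (horizontal axis), 1 point per gene, filled where the probe was good on at least 1 of the 2 arrays. The black line is their median and dotted lines mark 2-fold. The medians are 1.51 for WT DMBA over WT at 24 days and -0.85 for the array labelled βERKO over WT DMBA.

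Balb/c and C57 glands were compared at 24 days, the C57 glands being those without DMBA. Of 9 members tested 4 were over 2-fold lower in Balb/c and 1 was higher, against 9.33% of 28069 probes lower and 9.17% higher. Emcn (-2.29), Cldn5 (-2.00) and Esam (-1.22) were lower, and Kdr was 2.33-fold lower by its own near-background spot in Balb/c. Esam was not past 2-fold with quantile scaling or cyclic loess (both -0.88), nor Kdr with normexp (-0.43), and with normexp Emcn (-1.35) and Cldn5 (-1.31) had smaller ratios. Cdh5 was the exception, near background in C57 and higher in Balb/c, 5.65-fold against the lowest good signal of the C57 array and by 1.15 on the log2 scale with normexp. Tie1 (-0.72), Egfl7 (-0.65), Tek (-0.52) and Pecam1 (-0.46) were under 2-fold but beyond the probe-pair SD of 0.33. This comparison shares the C57 array at 24 days with those of culture time and DMBA, so a high or low value of that array enters all 3. The median over members was -0.69 and over all tested probes -0.15. Scaling to the 75th percentile moved the probes' median to 0.07 and their split to 12.0% higher and 5.86% lower, with 4 members lower and 1 higher as before. Other endothelial genes were lower in 12 of 31 and higher in 1, Cd93 (-2.22) and Adgrl4 (-1.66) being lower and Apln (1.62) higher. Adipocyte markers were lower in 9 of 9, with sums of 268 in Balb/c and 1059 in C57. Leukocyte markers, some of whose cells carry Pecam1, were lower in 4 of 6 and higher in 0, with sums of 22.2 and 102. Platelet markers, which also bear on Pecam1, were lower in 2 of 5 and higher in 1, with sums of 6.76 and 40.0. Pericyte markers were lower in 2 of 7 and higher in 1, and fibroblast markers higher in 2 of 9 and lower in 0. The part of these in the members' ratios was not tested.

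Vitamin D5, an analog of vitamin D, was compared in Balb/c glands at 24 days. Of 9 members tested 0 were over 2-fold higher and 1 was lower, against 5.12% of 28418 probes higher and 7.06% lower. The lower member was Cdh5, at 0.340 against 1.84, a 5.41-fold difference (log2 -2.43), which was -1.07 with normexp. Cldn5 (-0.88), Pecam1 (-0.47), Egfl7 (-0.33) and Esam (-0.26) lay beyond the probe-pair SD of 0.23, and Tek (0.22), Emcn (-0.16) and Tie1 (-0.01) within it. Kdr, near background without Vitamin D5, was at -0.09. The members' median was -0.30 against 0.09. Of 29 other endothelial genes tested 3 were higher and 0 lower, and of these 3 each was good on 1 of the arrays only. Of the 7 ligands tested 0 passed 2-fold in either direction, and Vegfa was 29.6 with and 32.2 without Vitamin D5. Adipocyte markers were lower in 2 of 8 and higher in 0, with sums of 182 with and 268 without Vitamin D5. Fibroblast markers were higher in 3 of 10 (sums of 54.8 and 31.9) and epithelial markers in 2 of 12 (1911 and 1478), with 0 lower in either list, and the part of these in the members' ratios was not tested.

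The members did not follow 1 pattern, and their profiles across the 7 arrays fell into closer and looser relations. Likeness was measured as the root mean square difference of log2 profiles after each was centred on its own mean, over 7 arrays, and it is a description of these arrays. Tie1 and Egfl7 were nearest, at 0.16, followed by Tie1 with Esam and Esam with Egfl7, both at 0.27. Cldn5 and Emcn formed the next pair at 0.35. Distances from Flt1 and Cdh5 are not given, since these were near background on most arrays. Kdr lay 1.00 from Tie1 and 1.49 from Pecam1. Averaged over the 10 members the centred profile was 1.86 on WT DMBA, 1.16 on αERKO, 0.64 on the array labelled βERKO, -0.26 in WT at 24 days, -0.76 in Balb/c, -1.28 with Vitamin D5 and -1.36 in WT at 10 days. This mean includes the near-background values of Flt1 and Cdh5, and no mean without them is given.

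Against this mean profile, 9338 genes that were good on all 7 arrays had a median difference of 1.21. Esam, at 0.23, ranked first and Pecam1, at 0.27, next, and Egfl7, Tie1 and Tek ranked 12, 15 and 16, while Emcn ranked 309 and Cldn5 345. The members helped to make that mean, so their ranks are a description. The non-members nearest to it were Pla2g15 (0.28), Sspn (0.29), Chst12 (0.29), Prr15 (0.30), Nr1h3 (0.30), 2010003K11Rik (0.31), Tshr (0.31) and Nav1 (0.31), none of which was on a vascular list. Nr1h3 encodes the liver X receptor α, a sterol sensor, and Tshr the thyrotropin receptor. The nearest genes from the vascular lists were Cspg4, or NG2, of pericytes, at rank 74, and Robo4, an endothelial guidance receptor, at rank 83, with the ETS factor Fli1 at 85 and Vegfd at 87.

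The ligands had orders of their own over the 7 arrays. Vegfa was lowest on WT DMBA, at 7.45, and between 16.6 and 32.2 on the other 6. Pgf was 1.01 on the αERKO array and between 8.88 and 18.7 elsewhere. Vegfb was 24.0 on the αERKO array, 10.8 on WT DMBA and 9.15 on the array labelled βERKO, and between 3.27 and 6.37 on the other 4, and Vegfd was likewise higher on these 3 arrays, between 7.50 and 10.0, than on the others, between 1.28 and 2.90. Vegfc, the other VEGFR3 ligand, ran from 0.517 to 0.780. Vegfb and Vegfd thus had the members' 3 arrays on top, and Vegfa did not. Angpt1, the activating ligand of Tie2, stayed between 0.263 and 0.506 and was good on 3 arrays, and Angpt4 was near background on all 7.

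Summed over the 10 members the normalized intensity was 14.5 in WT glands at 10 days, 38.5 at 24 days and 169 with DMBA, 64.2 on the array labelled βERKO, 126 on the αERKO array, 18.4 in Balb/c glands and 14.2 with Vitamin D5. Bright probes such as that of Esam weigh most in this sum. Adipocyte sums ran from 182 with Vitamin D5 to 3365 on the αERKO array, and epithelial sums ran from 509 on the αERKO array to 1911 with Vitamin D5. On 7 arrays of different groups the members' sum was thus highest on the WT DMBA, αERKO and βERKO-labelled arrays, where adipocyte sums were also highest and epithelial sums lowest. Fibroblast sums (579 on αERKO, 254 on WT DMBA and 102 on the array labelled βERKO) and pericyte sums (33.2, 22.3 and 7.38) were highest there too. The members' sum peaked on WT DMBA and the adipocyte, fibroblast and pericyte sums on αERKO. Between Balb/c glands and WT glands at 24 days the members' sum was 18.4 against 38.5. The adipocyte sum was 268 against 1059 and the epithelial sum 1478 against 1529. The part of tissue make-up in the members' levels was not tested. Lymphatic markers had sums between 29.6 and 59.5, most of it from Pdpn on the array labelled βERKO (50.7 of 59.5). Lyve1, the hyaluronan receptor of lymphatic vessels, was good at 3.62 on αERKO, 7.13 on WT DMBA and 0.521 in WT at 24 days and near background on the other 4.

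**Figure D4:**
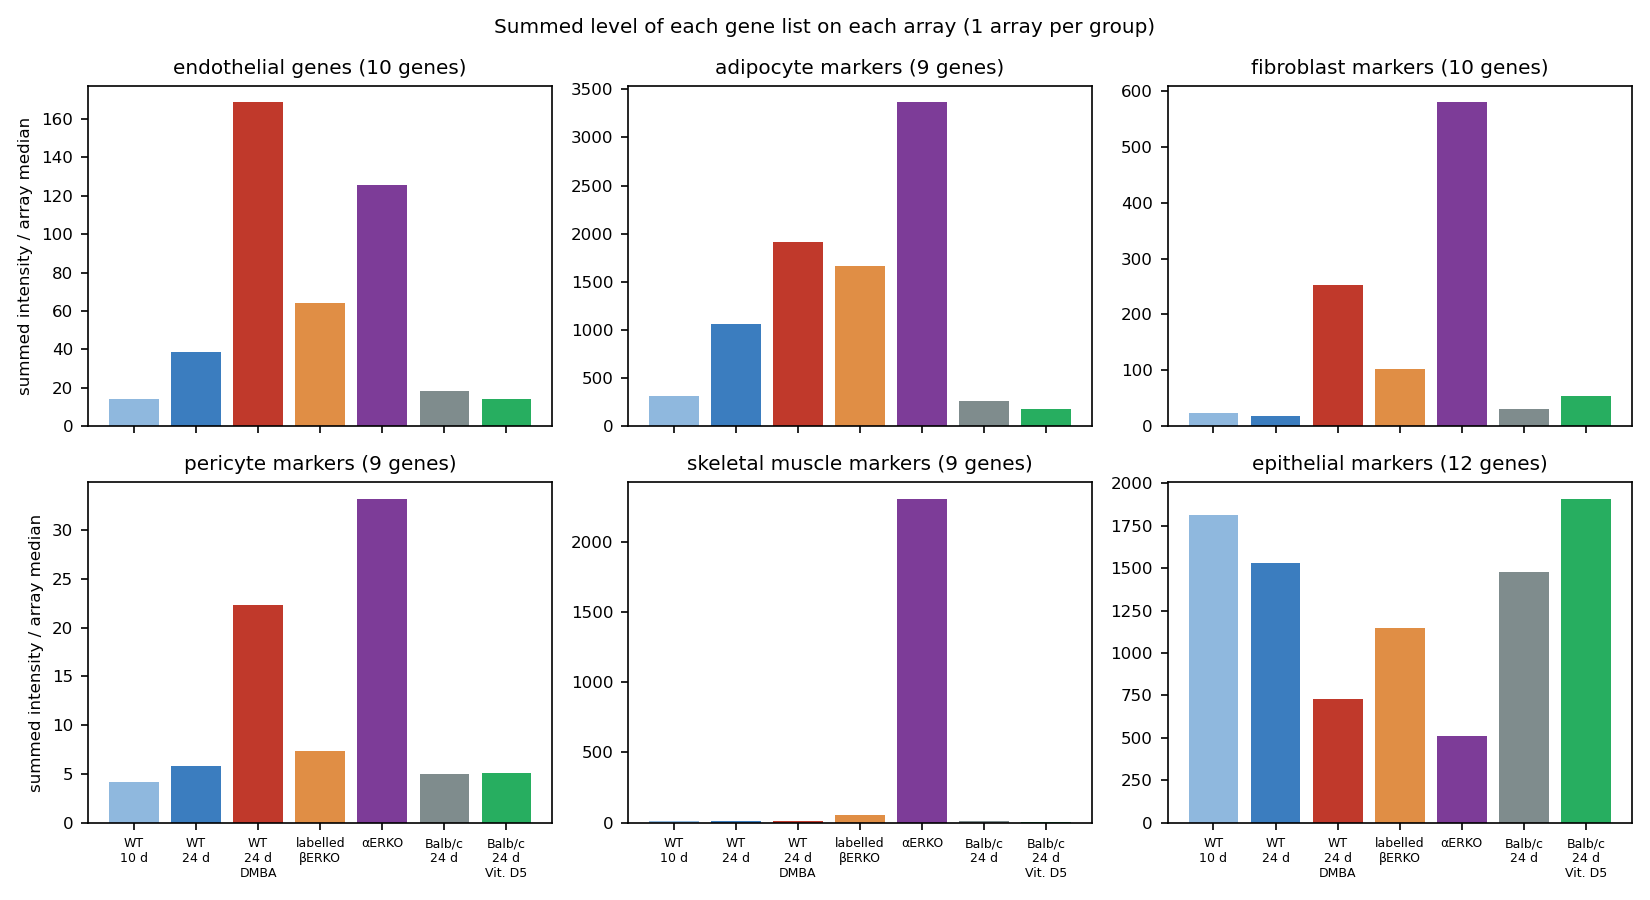
Summed normalized intensity (vertical axis, intensity over the array median, linear and starting at 0, scaled separately in each panel) of 6 gene lists on the 7 arrays (horizontal axis), 1 bar per array and no error bars, since each group had 1 array. The endothelial sum is 169 on WT DMBA and 126 on αERKO, the skeletal muscle sum is 2308 on αERKO alone, and the epithelial sum is lowest, at 509, on αERKO.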

How the data were processed

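The authors deposited 1 file per array with an intensity per spot, background-subtracted by the CodeLink software, a normalized intensity equal to it divided by 1 constant, and quality flags. The methods scale each array to its median, and no build is named. Of 34967 gene probes, 15553 carried a RefSeq accession and 14763 of these were matched to a symbol. Each intensity was divided by the array's median gene probe, values at or under 0 were raised to the lowest above 0, and log2 was taken (Python 3.11.15). A difference was called past 2-fold where either array of the pair had a good spot. The methods also used 2-fold, but filtered on background once over their 3 groups. Where 1 spot was near background, the fold is a bound against the higher of the lowest good signal of that array and the spot's own value. The members and the gene lists were chosen with earlier results of these data known, and the most alike genes were the 8 non-members nearest to the members' mean profile. Other endothelial genes named were up to 3 per direction with the largest ratios, good on both arrays, and any further ones were chosen after their values were seen. Alternatives were quantile, 75th percentile and cyclic loess scaling, the deposited normalized intensity, normexp with an offset of 50 (limma 3.58.1, R 4.3.3), a floor for dim values, and thresholds of 1.5-fold and 3-fold. The series' value table was not used, since its rows carry no probe name.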

Additional observations from a re-analysis of the deposited data

How the results depend on the processing

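The median log2 ratio of the members after DMBA stayed between 1.81 and 2.37 under the 8 alternatives tried, and 9 members were past 2-fold under each scaling and 8 with normexp, with dim values raised to the lowest good signal or where both spots had to be good. The median for culture time was 0.48 with normexp, against 0.88. The number of members past the threshold for αERKO against the array labelled βERKO went from 3 to 5 with quantile scaling, with cyclic loess and at 1.5-fold, and to 1 with normexp and at 3-fold. For culture time it was 2 at 3-fold, 7 at 1.5-fold and 3 with normexp, against 4. For αERKO against WT it was 2 at 3-fold and 4 with 75th percentile scaling, normexp, dim values raised or both spots good, against 5, and for the array labelled βERKO against WT 2 at 3-fold, 7 with normexp and 8 with dim values raised, against 9. In Balb/c against C57 it was 7 at 1.5-fold, 3 at 3-fold, 3 where both spots had to be good, and 4 with quantile, cyclic loess or normexp, against 5. With Vitamin D5 the number was 2 with 75th percentile scaling and at 1.5-fold, against 1. No median or count changed direction under the alternatives tried, and the cause of these moves was not tested. Of the log2 ratios of single members under the alternatives, 379 moved by less than the probe-pair SD and 41 by more. The deposited normalized intensity and 75th percentile scaling could only shift all ratios of a comparison by 1 constant. The 379 therefore include ratios that could hardly move. Averaging the probes of a gene changed nothing, since each member had 1 named probe. With 1 array per group no array could be left out, and no paired analysis was possible because each group had 1 array. Flt1 and Cdh5 were near background on 6 and 5 arrays, and their ratios are limited by signal over background.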
